A study of Mus musculus with 12 samples.

Results

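The contrast described here compared the change of each gene of the mouse testis after overexpression of a long noncoding RNA, lncRNA8276, with that after its knockdown. For each gene it takes the log2 difference between overexpression and the control group 5NC and subtracts the log2 difference between knockdown and the control group 3NC. A positive contrast means that the level after overexpression, relative to 5NC, stood above the level after knockdown, relative to 3NC. It does not require movement in opposite directions, since a change in a single group, such as 3NC, also gives a value. It was fitted over all 12 libraries of the study and all 20718 genes of its table, of which 16320 passed a filter on low counts and were tested.

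The libraries were made from total RNA of F0 testes of a strain given as IRC mouse, in 4 groups of 3. In 8276OV the testes were given a virus for overexpression of lncRNA8276, and in 8276KD a virus for its inhibition. The names 5NC and 3NC are not spelled out in the labels, and neither what these groups received nor the age of the mice, the vector or the time after the virus is given in the sources used here. No label ties 5NC to 8276OV or 3NC to 8276KD: that pairing is part of the definition of the contrast, and the contrast with the controls exchanged is therefore given beside it. The labels do not say that the 3 libraries of a group came from separate animals, so the p-values measure the spread between these libraries, which may be technical. No gene symbol of the table holds the number of the lncRNA, so its own level, the direct check of both treatments, was not analysed here.

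Each library held between 15448442 and 16355720 estimated reads, and 3 reads corresponded to between 0.183 and 0.194 CPM (reads scaled to one common library total), the unit of all levels below. Markers of the testis were abundant in every library: the 20 tested markers of elongating spermatids summed to between 28122 and 34693 CPM. On the first principal component, with 19.1% of the variance, 3 libraries stood apart, namely 8276OV replicate 1 at -30.2, 8276OV replicate 3 at -30.3 and 3NC replicate 2 at -29.0. Replicate 2 of 8276OV lay at -10.3 and the other libraries between 5.16 and 16.1. The 3 that stood apart were not all alike by chi-square per degree of freedom, which is lower for more similar libraries. It was 5.62 between 8276OV replicate 3 and 3NC replicate 2. Against its own replicates 1 and 2, 8276OV replicate 3 had 15.8 and 18.9. Against its own replicates 1 and 3, 3NC replicate 2 had 18.7 and 21.3. Replicate 1 of 8276OV had 5.77 against 8276OV replicate 2 and 18.7 against 3NC replicate 2. The cause was not tested. The 3 libraries belong to groups that enter the contrast with the same sign. The calls, and the counts and medians of most gene lists, are therefore also given without them. In that fit 8276OV is replicate 2 alone and 3NC is replicates 1 and 3. Its values thus hold no spread within 8276OV, whose level rests on a single library.

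The testis is mostly germ cells in successive stages, nursed by Sertoli cells and surrounded by myoid, Leydig, endothelial and immune cells. Early response genes such as Egr1, Fos and Myc are transcribed soon after a growth factor or a stress reaches a cell, and genes such as Errfi1 and Trib1 then damp or redirect that signalling. Interferon response genes are switched on when interferon binds its receptor, commonly in cells that sense a virus, and they include much of the machinery of antigen presentation by MHC molecules.

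Across the whole table, 10 genes passed edgeR's quasi-likelihood test, with p adjusted by Benjamini-Hochberg over all genes and a threshold of 0.05, and these 0.0613% of the genes tested are referred to as called. The positive calls numbered 9, or 0.0551%: Medag, Ifrd1, Ccl7, Myc, Errfi1, Lhfpl3, Trib1, Sema4b and Cox7b. The single negative call, or 0.00613%, was Kcnk3. At an unadjusted p under 0.05 there were 2560 genes, or 15.7% of those tested, 1424 of them positive and 1136 negative. The median contrast over all genes was 0.00 on the log2 scale, and the values at the 10th and 90th percentiles were -0.47 and 0.46. A replicate block for 8276OV and 5NC gave 21 positive and 3 negative calls, with all 10 genes among them. It was read because same-numbered libraries of these groups deviated together weakly, at r from 0.109 to 0.165. Differently numbered libraries of 8276OV and 3NC reached 0.181, and no label says what a number marks. Of the named genes that missed the threshold without the block, 7 were called with it in edgeR's test: Csdc2 at -1.50 (adjusted p = 0.0306) and Spink8 at -4.51 (adjusted p = 0.00854) on the negative side, and Ccl2 at 6.78 (adjusted p = 0.00854), Itga5 at 2.27 (adjusted p = 0.00854), Socs3 at 2.93 (adjusted p = 0.0136), Ugdh at 1.81 (adjusted p = 0.0246) and the macrophage receptor gene Cd14 at 2.82 (adjusted p = 0.0273) on the positive side. The adjusted p given with these genes below is that without the block. Without the 3 libraries that stood apart, 3 genes were positive and 1 negative, and Medag alone of the 10 was still called. Of the genes tested with all 12 libraries, 519 were then positive and 551 negative at an unadjusted p under 0.05. With 1 library left out these numbers ranged from 718 to 1793 and from 758 to 1553. The counts of lists with libraries left out, given below, are to be read beside these. All values without the 3 libraries rest on replicate 2 alone for 8276OV.

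**Figure D1:**
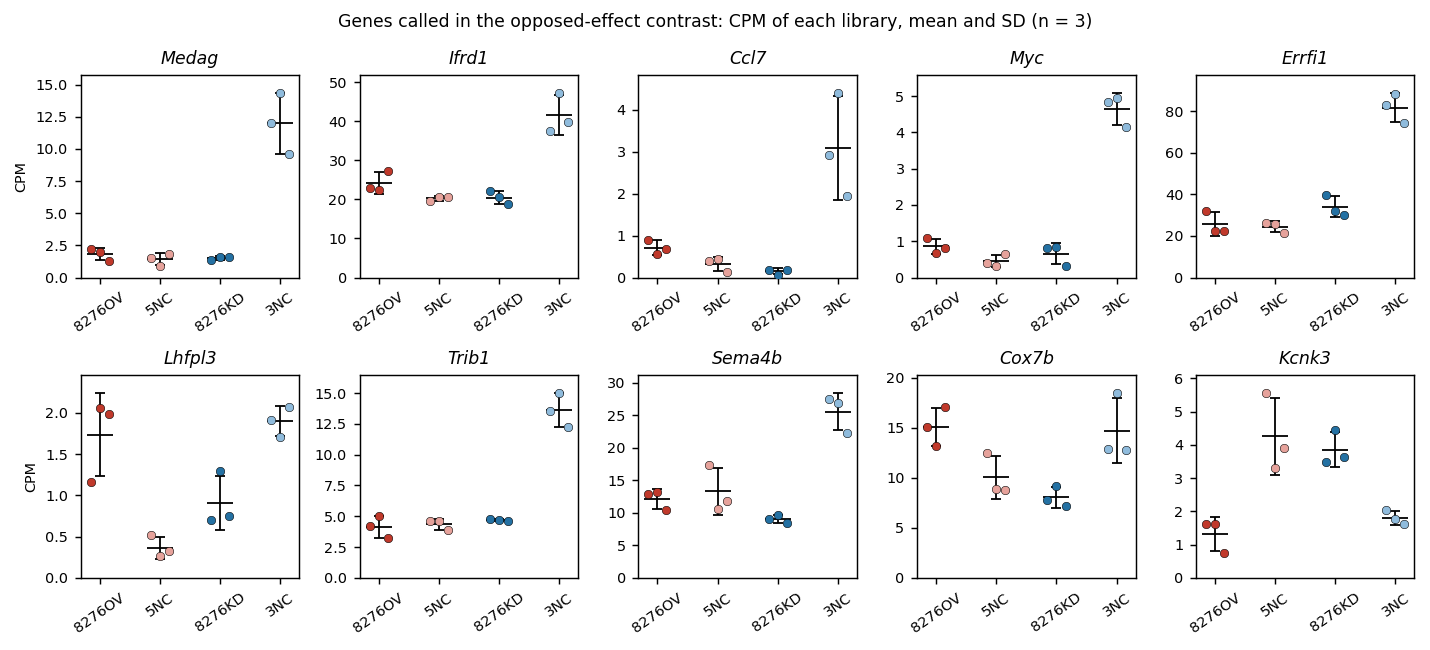
Level of each of the 10 called genes in CPM on the vertical axis, each panel with its own scale, for the 4 groups on the horizontal axis. Points are libraries, long bars the mean and whiskers the SD (n = 3). In 7 of the 9 genes with a positive contrast the 3 libraries of 3NC lie above all 9 others, and Kcnk3 is lower in 8276OV and 3NC than in 5NC and 8276KD.

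For each called gene the NCBI identifier of the table is given with the position of the gene in the RefSeq annotation of GRCm38, the build also called mm10. Myc (gene 17869, chr15:61985341-61990361), the transcription factor of growth and biosynthesis, measured 1.09, 0.688 and 0.806 CPM in 8276OV and 0.387, 0.324 and 0.641 CPM in 5NC. It measured 0.823, 0.838 and 0.314 CPM in 8276KD and 4.84, 4.95 and 4.14 CPM in 3NC. Every library of 8276OV lay above every library of 5NC, but the widest gap was between 3NC and all other groups. The contrast of Myc was 3.75 ± 0.50 (log2, SE) with an adjusted p of 0.0117 in edgeR's test, made of 0.94 between 8276OV and 5NC and -2.80 between 8276KD and 3NC. These levels rest on few reads, 41 in all of 8276OV, 21 in 5NC, 31 in 8276KD and 221 in 3NC.

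Errfi1 (gene 74155, chr4:150853796-150868889), the feedback inhibitor of the EGF receptor also called Mig6, measured 32.2, 22.5 and 22.6 CPM in 8276OV and 26.5, 25.7 and 21.5 CPM in 5NC. Its levels were 39.7, 32.2 and 30.3 CPM in 8276KD and 82.8, 88.3 and 74.4 CPM in 3NC. The groups 8276OV and 5NC overlapped, and 3NC stood above all other libraries. With a contrast of 1.35 ± 0.20 (adjusted p = 0.0218, edgeR), Errfi1 differed by 0.09 between 8276OV and 5NC and by -1.26 between 8276KD and 3NC. Trib1 (gene 211770, chr15:59648654-59657099), a pseudokinase that directs transcription factors to degradation, showed the same arrangement. It ranged from 3.23 to 5.01 CPM over the libraries of 8276OV, 5NC and 8276KD and from 12.2 to 15 CPM in 3NC. Its contrast of 1.47 ± 0.23 (adjusted p = 0.0339, edgeR) was made of -0.05 and -1.52. Ifrd1 (gene 15982, chr12:40203129-40223189), a transcriptional co-regulator induced by growth factors, measured 22.8, 22.4 and 27.4 CPM in 8276OV, 19.6, 20.6 and 20.6 CPM in 5NC, 22.1, 20.5 and 18.8 CPM in 8276KD and 37.5, 47.2 and 39.9 CPM in 3NC. The 8276OV and 3NC libraries of Ifrd1 all lay above those of 5NC and 8276KD. Its contrast was 1.29 ± 0.16 (adjusted p = 0.00944, edgeR), with 0.28 from 8276OV and 5NC and -1.02 from 8276KD and 3NC.

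Ccl7 (gene 20306, chr11:82045712-82047525), a chemokine that draws monocytes, measured 0.901, 0.563 and 0.682 CPM in 8276OV and 0.387, 0.453 and 0.128 CPM in 5NC. It measured 0.190, 0.0645 and 0.188 CPM in 8276KD, at or under the level of 3 reads, and 2.93, 4.40 and 1.94 CPM in 3NC. All 3NC and 8276OV libraries lay above all others. The reads summed to 34 in 8276OV, 15 in 5NC, 7 in 8276KD and 148 in 3NC, a ratio of 21.0 between 3NC and 8276KD with a 95% interval of 9.95 to 53.2 that covers counting error only. Only in 3NC did every library exceed the filter count of 10, and the gene was then selected by this contrast. The ratio thus describes the levels and adds no support. The contrast of 5.46 ± 0.70 (adjusted p = 0.00944, edgeR) had 1.15 from 8276OV and 5NC and -4.31 from 8276KD and 3NC.

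Medag (gene 70717, chr5:149367641-149431723), named for its part in the formation of fat cells, had the smallest adjusted p. It measured 2.19, 2.0 and 1.30 CPM in 8276OV and 1.55, 0.906 and 1.79 CPM in 5NC. Its levels were 1.33, 1.61 and 1.63 CPM in 8276KD and 12, 14.3 and 9.58 CPM in 3NC. The groups 8276OV, 5NC and 8276KD overlapped and 3NC lay far above them. The contrast of Medag was 3.35 ± 0.37 (adjusted p = 0.00452, edgeR), made of 0.39 between 8276OV and 5NC and -2.96 between 8276KD and 3NC. Sema4b (gene 20352, chr7:80186870-80226646), a membrane-bound semaphorin, ranged from 8.48 to 17.4 CPM over the libraries of the other groups and from 22.3 to 27.5 CPM in 3NC. For Sema4b the contrast was 1.39 ± 0.22 (adjusted p = 0.0339, edgeR), of which -0.10 came from 8276OV and 5NC and -1.49 from 8276KD and 3NC.

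Lhfpl3 (gene 269629, chr5:22746054-23275597), a membrane protein gene, was the exception in which 8276OV and 5NC carried the larger share. Its levels were 1.16, 2.07 and 1.99 CPM in 8276OV against 0.517, 0.259 and 0.320 CPM in 5NC. In 8276KD it measured 0.696, 1.29 and 0.754 CPM, against 1.91, 1.71 and 2.07 CPM in 3NC. Neither pair of groups overlapped. The contrast of 3.30 ± 0.49 (adjusted p = 0.0218, edgeR) was made of 2.25 and -1.05. Cox7b (gene 66142, chrX:106015700-106022450), a subunit of cytochrome c oxidase in the respiratory chain, measured 15.1, 13.2 and 17.1 CPM in 8276OV, 12.5, 8.87 and 8.78 CPM in 5NC, 7.79, 9.22 and 7.16 CPM in 8276KD and 12.9, 18.5 and 12.8 CPM in 3NC. Its 8276OV and 3NC libraries all lay above those of 5NC and 8276KD. Its contrast was 1.48 ± 0.24 (adjusted p = 0.0461, edgeR), with 0.61 and -0.87 as its parts.

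Kcnk3 (gene 16527, chr5:30588170-30625270) encodes TASK-1, a channel for the potassium leak that sets the resting potential. Its levels were 1.61, 1.63 and 0.744 CPM in 8276OV and 5.55, 3.30 and 3.91 CPM in 5NC. In 8276KD it measured 3.48, 4.45 and 3.64 CPM, and in 3NC 2.04, 1.77 and 1.62 CPM. Both pairs of groups were apart, in opposite directions. The contrast was -2.74 ± 0.38 (adjusted p = 0.0140, edgeR), of which -1.65 came from 8276OV and 5NC and 1.09 from 8276KD and 3NC.

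Read together by their parts, the 9 positive genes had most of their contrast in the difference between 8276KD and 3NC. That difference carried the larger share of the contrast in 8 of them, and it was called on its own in 7 of them, where 0.178% of all genes were called, 0.153% in the negative direction. The libraries of 8276KD lay below those of 3NC in all 9. Those of 8276OV lay above those of 5NC in 5, namely Ifrd1, Ccl7, Myc, Lhfpl3 and Cox7b. The contrast that selected these genes contains both differences on the same libraries, so these counts describe the calls and add no support. The share over all genes was counted only for genes apart in both pairs. Over all genes, 170 (1.04%) had 8276OV above 5NC and 8276KD below 3NC without overlap, and 247 (1.51%) had the reverse. The difference between 8276OV and 5NC had 0 calls (0%) in edgeR's test, with 1697 genes (10.4%) at an unadjusted p under 0.05, and the same 5 genes were among these. Medag, Ifrd1, Ccl7 and Myc were called whichever of the 12 libraries was left out, whereas Cox7b and Trib1 were each called in 2 of the 12 fits. Kcnk3 lost its call in 2 of these fits, Errfi1 and Lhfpl3 in 6 each and Sema4b in 8.

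**Figure D2:**
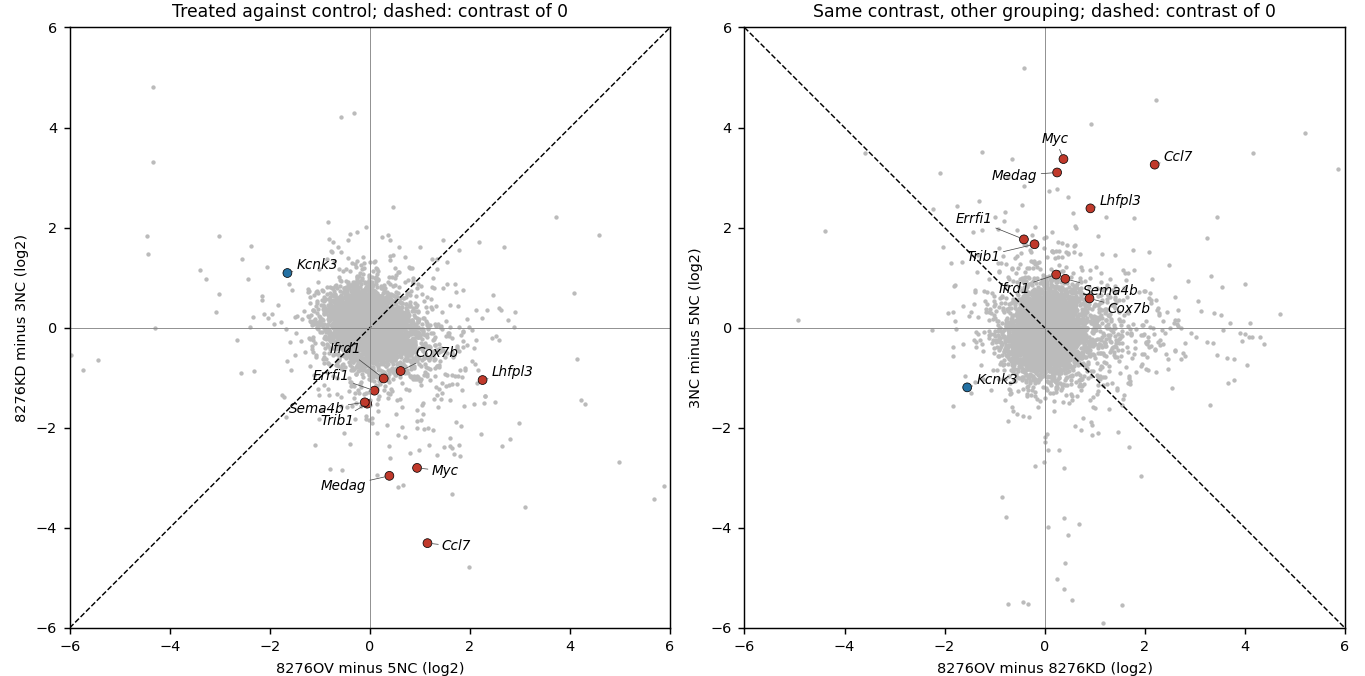
Every tested gene by the parts of its contrast, in log2, with called genes in colour (red positive, blue negative) and a dashed line where the contrast is 0; genes beyond 6 in either direction are not drawn. In the left panel the 9 red genes lie below the horizontal line, 5 of them at a difference of 0.39 or less between 8276OV and 5NC, and in the right panel, which splits the same contrast into 8276OV minus 8276KD and 3NC minus 5NC, they lie above it.

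The same contrast is also the sum of the difference between 8276OV and 8276KD and the difference between 3NC and 5NC, so a gene raised in 3NC alone gives a positive value. Exchanging the controls keeps the first term and turns the sign of the second. That contrast, (8276OV minus 3NC) minus (8276KD minus 5NC), shares all 12 libraries with the first and had 25 calls, or 0.153% of genes, 6 positive (0.0368%) and 19 negative (0.116%). Of the 9 genes with a positive contrast, 8 were negative after the exchange, and Medag at -2.85, Myc at -2.99, Errfi1 at -2.18 and Trib1 at -1.87 were among the genes called negative. Cox7b was positive both ways, at 1.48 and 0.31, and Kcnk3 negative both ways, at -2.74 and -0.35. The sign of those 8 thus depended on which control was set against which treatment.

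Over the 28 early response transcription factors listed, 12 were positive and 16 negative, with a median of -0.04. One was called, Myc, and 7 were positive and 5 negative at an unadjusted p under 0.05. These counts were 4 and 2 without the 3 libraries that stood apart, and without 5NC replicate 1 or 3NC replicate 1 the negative count was 3. With the controls exchanged the median of the list was -1.81. Egr1, a zinc finger factor induced by ERK signalling, measured 5.41, 3.75 and 3.78 CPM in 8276OV, 6.46, 3.24 and 4.10 CPM in 5NC, 53.0, 52.2 and 49.6 CPM in 8276KD and 53.7, 50.9 and 46.2 CPM in 3NC. Treated and control libraries of a pair overlapped, and the pairs were far apart. Its contrast was -0.11 ± 0.25 (adjusted p = 0.842, edgeR), and -7.07 with the controls exchanged. Btg2, which restrains proliferation, likewise had 0.14 against -4.59, and Junb, an AP-1 subunit, -0.41 against -3.64. Egr1, Btg2, Junb and Fos were chosen for description after their values were seen.

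Fos, the other AP-1 subunit described, measured 0.772, 0.814 and 0.186 CPM in 8276OV and 1.36, 0.906 and 0.769 CPM in 5NC. It measured 8.67, 18.2 and 10.4 CPM in 8276KD and 3.70, 4.83 and 2.85 CPM in 3NC. Here 8276KD lay above 3NC without overlap, the opposite of Myc. The contrast of Fos was -2.46 ± 0.59 and missed the threshold (adjusted p = 0.210, edgeR). Nr4a3, an orphan nuclear receptor of the same list, was arranged like Myc, at 9.50, 14.6 and 11.3 CPM in 3NC and between 1.67 and 4.18 CPM in all other libraries. Its contrast of 1.81 ± 0.37 also missed the threshold (adjusted p = 0.123, edgeR). Early response genes thus took different positions among the 4 groups, and the summed level of the list separated 8276KD and 3NC, from 761 to 848 CPM, from 8276OV and 5NC, from 596 to 675 CPM.

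**Figure D3:**
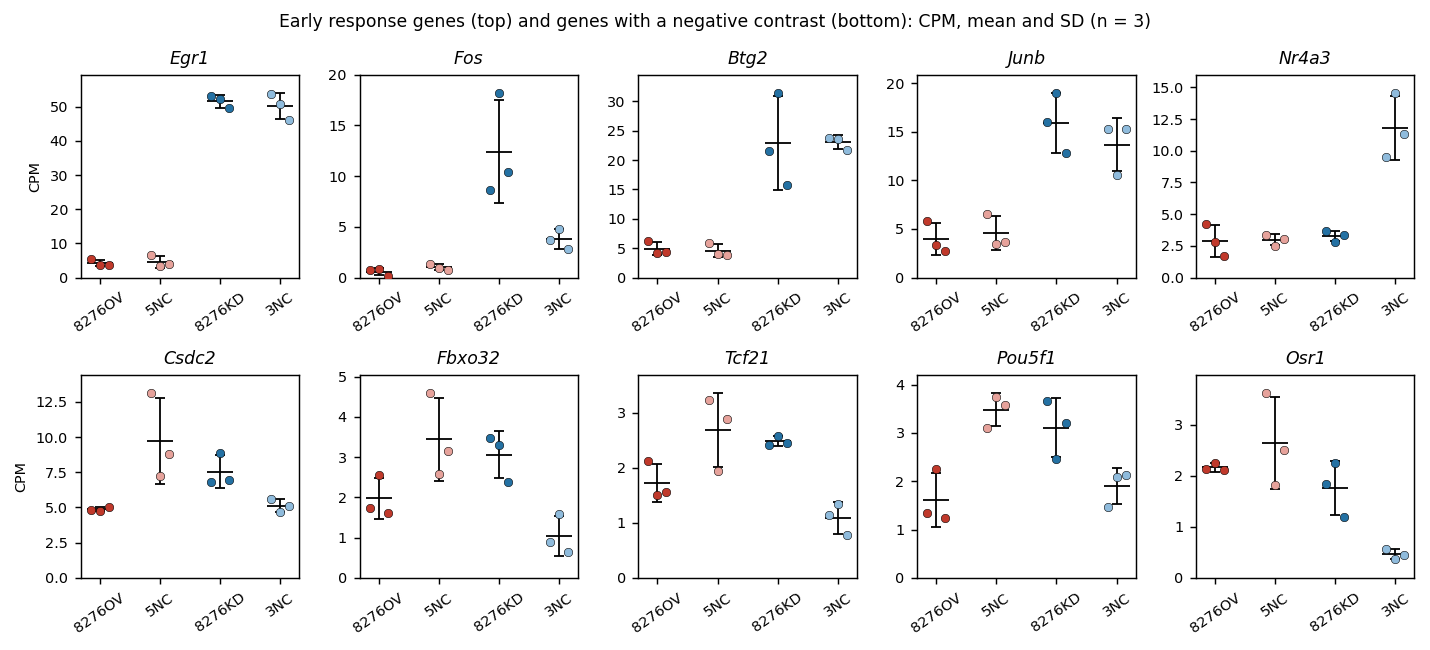
Level in CPM of 5 early response genes (top row) and 5 genes with a negative contrast (bottom row) by group, each panel with its own scale; points are libraries, long bars means and whiskers SD (n = 3). Egr1, Btg2 and Junb separate 8276KD and 3NC from 8276OV and 5NC, Nr4a3 is high in 3NC, and the genes of the bottom row are lower in 8276OV than in 5NC on average and higher in 8276KD than in 3NC.

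Promoters of the called genes were read from RefSeq on GRCm38.p6, over the 250 bases before each start. Of the 10 genes, 6 had a promoter in that table, 9 promoters in all. Motifs were searched on both strands, and the shares are over 32851 promoters: the E-box CACGTG stood in 6.02% of them and in those of Medag and Sema4b, and the cAMP response element TGACGTCA in 1.55% and in that of Errfi1. The AP-1 site TGANTCA (6.75%), an NF-kappaB site (1.41%), the interferon-stimulated response element (2.98%) and the CArG box (1.47%) had 0 matches in the promoters of called genes, which says only that these letters are not in these windows. Medag, as the gene with the smallest p, and Errfi1, as the match to the rarer motif found, are printed with the matched letters in capitals, and were chosen after their values were seen. They lie on the plus strand at chr5:149413588-149413837 and chr4:150854820-150855069. Each precedes a RefSeq start that lies inside the span given above for the gene, downstream of the first base of that span.
Medag: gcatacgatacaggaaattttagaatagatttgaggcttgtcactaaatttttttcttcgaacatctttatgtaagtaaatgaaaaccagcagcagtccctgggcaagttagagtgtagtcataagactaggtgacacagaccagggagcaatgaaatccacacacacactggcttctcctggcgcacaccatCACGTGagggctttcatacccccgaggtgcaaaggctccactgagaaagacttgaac
Errfi1: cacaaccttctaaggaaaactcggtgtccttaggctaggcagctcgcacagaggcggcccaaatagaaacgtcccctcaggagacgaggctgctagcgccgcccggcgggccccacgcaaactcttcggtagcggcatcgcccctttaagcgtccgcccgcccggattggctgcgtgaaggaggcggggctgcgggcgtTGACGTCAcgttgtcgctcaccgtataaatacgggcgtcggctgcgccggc
The capitals lie at bases -57 to -52 from the start in Medag and -51 to -44 in Errfi1.

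Feedback inhibitors of ERK signalling other than Errfi1 had no call: of 15 listed genes 9 were positive, 5 of them at an unadjusted p under 0.05, and 1 was negative at that level, Spry1 at -0.81 ± 0.27. The positive count at that level was 3 without the 3 libraries that stood apart, and also without 5NC replicate 2, 8276KD replicates 1 or 3 or 3NC replicate 2. Over all genes the positive number fell as well, from 1424 to 519 without the 3 libraries and to 718 without 3NC replicate 2. Dusp10, a phosphatase that switches off stress kinases, had 0.53 ± 0.14. The median of the list was 0.29, and -0.22 with the controls exchanged. Among cytokines and their SOCS inhibitors the median was 0.25, and 0.03 with the controls exchanged. Of 18 genes 13 were positive, 3 at an unadjusted p under 0.05. That count was 6 without 3NC replicate 3 and 5 without 8276OV replicate 3 or 5NC replicate 1, and without the 3 libraries that stood apart 9 were positive, 1 at that level, with a median of 0.0072. Socs3, which shuts off cytokine receptors, had the largest named value of that list at 3.01 ± 0.57 (adjusted p = 0.0980, edgeR) and again lay highest in 3NC, at 7.46, 14.5 and 10.7 CPM against 0.993 to 3.80 CPM elsewhere. Chemokines besides Ccl7 included Ccl2, which attracts monocytes, at 3.44, 3.55 and 2.46 CPM in 3NC and 1.22 CPM or less in each other library. Its contrast of 6.78 ± 1.29 (adjusted p = 0.0980, edgeR) rests on 5 reads in 8276KD and 6 in 5NC. Of 19 chemokines 14 were positive, 8 at an unadjusted p under 0.05, with a median of 1.75, and 0.19 with the controls exchanged. The median became 0.11 without 8276OV replicate 1 and -0.12 without the 3 libraries that stood apart. With those 3 libraries left out 9 of the 19 were positive, and 6 were positive and 4 negative at that level.

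Interferon response genes were positive as a group, with no single call. Of 37 tested, 36 were positive and 24 were positive at an unadjusted p under 0.05, where 8.73% of all genes were. The median was 1.79, made of 1.05 between 8276OV and 5NC and -0.85 between 8276KD and 3NC. With the controls exchanged it was 2.31, and the direction of the list did not turn. Both contrasts share the difference between 8276OV and 8276KD, with a median of 2.06, beside -0.13 between 3NC and 5NC. The exchange is therefore no separate check of the list. The summed level of the list was 597, 824 and 333 CPM in 8276OV, 305, 450 and 185 CPM in 5NC, 162, 178 and 183 CPM in 8276KD and 181, 487 and 202 CPM in 3NC. The libraries of 8276OV and 5NC overlapped, 8276KD had the lowest mean and little spread, and replicate 2 of 3NC exceeded the other 3NC libraries. Without 3NC replicate 2, 10 genes were positive at an unadjusted p under 0.05, where 718 of all genes were, and the median was 1.21. Without the 3 libraries that stood apart, all 37 were positive, with a median of 1.51. That fit kept only replicate 2 of 8276OV, the library with the highest sum of the list.

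Ifi44, an interferon-induced protein of the cytoplasm, measured 5.08, 5.01 and 1.55 CPM in 8276OV and 0.646, 0.712 and 0.128 CPM in 5NC. It measured 0.316, 0.193 and 0.188 CPM in 8276KD and 0.255, 2.02 and 0.388 CPM in 3NC. All 8276OV libraries were above all of 5NC, and 8276KD overlapped 3NC. Its contrast was 4.87 ± 1.13 (adjusted p = 0.213, edgeR). Ifit1, which binds foreign RNA that lacks host cap marks, measured 2.77, 2.38 and 0.930 CPM in 8276OV, 0.839, 0.971 and 0.449 CPM in 5NC, 0.380, 0.258 and 0.565 CPM in 8276KD and 0.765, 1.04 and 0.842 CPM in 3NC. One library of 8276OV fell within the range of 5NC, and 8276KD lay below 3NC without overlap. Its contrast was 2.55 ± 0.63 (adjusted p = 0.213, edgeR). The RNA sensor Ifih1, known as MDA5, had 1.65 ± 0.43. The promoter of Ifit1 at chr19:34640639-34640888 on the plus strand is printed because it holds 2 matches to the response element that binds the factors downstream of the interferon receptor, in capitals at bases -104 to -95 and -85 to -76 from the start. It was chosen after the values were seen.
Ifit1: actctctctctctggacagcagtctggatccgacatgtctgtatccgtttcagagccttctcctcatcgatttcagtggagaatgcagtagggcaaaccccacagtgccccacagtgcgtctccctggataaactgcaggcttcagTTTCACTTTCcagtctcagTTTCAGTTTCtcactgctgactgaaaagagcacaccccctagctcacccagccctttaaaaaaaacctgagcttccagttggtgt
In both matches the printed strand carries the reverse complement of that element.

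Genes of antigen presentation were positive as well. All 20 tested genes of MHC class I presentation were positive, 12 at an unadjusted p under 0.05, with a median of 1.31, and 1.78 with the controls exchanged. Without 3NC replicate 2, 18 were positive, 7 at that level, with a median of 0.96, and without the 3 libraries that stood apart 19 were positive, 14 at that level, with a median of 1.05. H2-D1, a classical class I heavy chain, measured 205, 155 and 164 CPM in 8276OV and 78.3, 45.1 and 47.4 CPM in 5NC. It measured 46.0, 74.9 and 76.8 CPM in 8276KD and 69.3, 101 and 60.7 CPM in 3NC. The 8276OV libraries stood above all 9 others, and 8276KD and 3NC overlapped. Its contrast was 1.86 ± 0.37 (adjusted p = 0.189, edgeR), of which 1.65 came from 8276OV and 5NC. H2-D1 has near-identical paralogs, so how reads were divided among them is uncertain. Nlrc5, the activator of class I genes, measured 14, 12.1 and 10.4 CPM in 8276OV and 5.88, 6.15 and 5.77 CPM in 5NC, without overlap. For Nlrc5 the contrast was 1.51 ± 0.31 (adjusted p = 0.123, edgeR), and -0.06 with the controls exchanged. Erap1, which trims peptides for class I, had 1.37 ± 0.31.

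Of 12 tested genes of MHC class II presentation 10 were positive, 7 at an unadjusted p under 0.05, with a median of 1.46. Without 3NC replicate 2 the median was 0.95, and 1 gene was positive at that level. Without 8276KD replicate 2 there were 4 such genes, and without the 3 libraries that stood apart 5, with a median of 0.94. H2-Ab1, a class II beta chain, measured 70.0, 54.1 and 28.1 CPM in 8276OV and 24.2, 28.1 and 15.9 CPM in 5NC, which met at 28.1 CPM. Its contrast was 1.54 ± 0.48. Beside these lists, macrophage markers were positive in 20 of 22, 7 at an unadjusted p under 0.05, with a median of 0.77. Their summed level was 678, 533 and 527 CPM in 8276OV, 520, 496 and 491 CPM in 5NC, 465, 479 and 495 CPM in 8276KD and 457, 532 and 479 CPM in 3NC. Without 8276OV replicate 1 the macrophage median was 0.32, and without the 3 libraries that stood apart it was 0.18, with 2 of 15 positive genes at that level; without 3NC replicate 2 there were 3. Markers of lymphocytes and granulocytes were positive in 8 of 12, with a median of 0.14 that ranged from 0.06 without 5NC replicate 1 to 0.31 without 3NC replicate 2 or 8276KD replicate 1. In bulk RNA more cells of a type and more RNA per cell cannot be told apart, and the part of the immune cell markers in the interferon and MHC values was not tested.

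**Figure D4:**
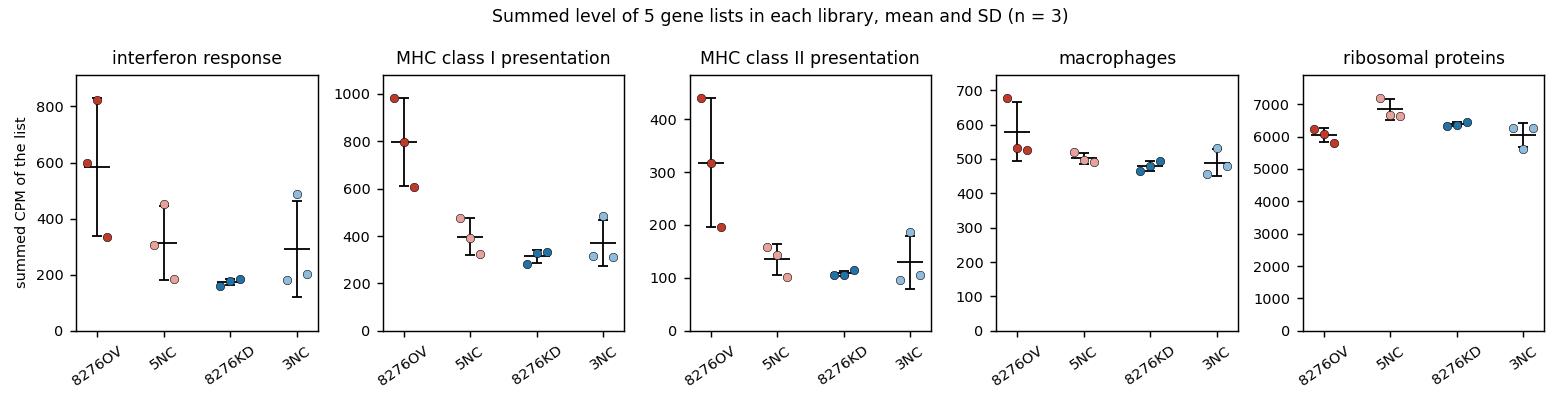
Summed CPM of all listed genes in the table for 5 gene lists in each library, by group; points are libraries, long bars means and whiskers SD (n = 3). Mean interferon and MHC sums are highest in 8276OV, although for interferon 8276OV replicate 3 lies below 5NC replicate 2 and 3NC replicate 2. In these lists 3NC replicate 2 stands above the other 3NC libraries. Macrophage markers differ less, and ribosomal protein sums are highest in 5NC.

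On the negative side, ribosomal protein genes shared small negative values. Of 36 tested 35 were negative and 20 were negative at an unadjusted p under 0.05, where 6.96% of all genes were, with a median of -0.28 and 0 calls. Their summed level was 6242, 6086 and 5814 CPM in 8276OV, 7197, 6669 and 6647 CPM in 5NC, 6341, 6371 and 6460 CPM in 8276KD and 6262, 5622 and 6260 CPM in 3NC. Both pairs were apart, 8276OV below 5NC and 8276KD above 3NC. Rpl18, a protein of the large subunit, had -0.49 ± 0.15. With the controls exchanged the median of the list was 0.08, so its direction depended on the pairing. Without the 3 libraries that stood apart all 36 were negative, 12 at an unadjusted p under 0.05, with a median of -0.18. The 20 listed MYC targets of ribosome biogenesis, by comparison, had a median of -0.05, with 2 positive and 2 negative at that level.

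Among single genes with a negative contrast, those after Kcnk3 missed the threshold without the replicate block, and the ones given are in order of p. Csdc2, an RNA-binding cold shock protein, measured 4.83, 4.76 and 5.02 CPM in 8276OV, 13.1, 7.25 and 8.78 CPM in 5NC, 6.77, 8.90 and 6.97 CPM in 8276KD and 5.61, 4.65 and 5.11 CPM in 3NC. Both pairs were apart. Its contrast was -1.53 ± 0.27 (adjusted p = 0.0661, edgeR). Fbxo32, the ubiquitin ligase subunit known from wasting muscle, had -2.31 ± 0.44 (adjusted p = 0.0980, edgeR), with 8276KD above 3NC without overlap. D430019H16Rik had -1.68 ± 0.33. The mesenchymal transcription factors Tcf21 and Osr1 had -1.79 ± 0.36 and -2.17 ± 0.44, and both were lowest in 3NC. Osr1 was called after the exchange of controls, at 2.74 (adjusted p = 0.0179, edgeR), with the opposite sign.

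Pou5f1, the pluripotency factor OCT4, measured 1.35, 2.25 and 1.24 CPM in 8276OV, 3.1, 3.75 and 3.59 CPM in 5NC, 3.67, 2.45 and 3.20 CPM in 8276KD and 1.47, 2.08 and 2.14 CPM in 3NC. Both pairs were apart in opposite directions, and the contrast was -1.80 ± 0.37 (adjusted p = 0.123, edgeR). Nrtn, a ligand of the GDNF family, had -1.56 ± 0.34, and its groups were also apart in both pairs. Eppin, a protease inhibitor of the sperm surface, had -0.86 ± 0.19, with most of it, -0.64, between 8276OV and 5NC.

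Markers of somatic testis cells were mostly negative. Of 27 Sertoli cell genes 22 were negative, 7 (25.9%) at an unadjusted p under 0.05, where 6.96% of all genes were. Their median was -0.29, which was 0.26 with the controls exchanged. Inha, the alpha subunit of inhibin, measured 46.1, 51.2 and 39.7 CPM in 8276OV and 104, 69.3 and 68.2 CPM in 5NC, without overlap. It measured 63.3, 71.9 and 58.1 CPM in 8276KD and 62.1, 45.3 and 61.8 CPM in 3NC, which overlapped. The contrast of Inha was -0.98 ± 0.22 (adjusted p = 0.200, edgeR). Kitl, the ligand through which Sertoli cells sustain spermatogonia, went against the list with 1.13 ± 0.22 (adjusted p = 0.0980, edgeR) and was highest in 3NC, at 26.3, 44.0 and 29.3 CPM. Peritubular and stromal genes were negative in 12 of 17, 7 at an unadjusted p under 0.05, with a median of -0.26. Endothelial genes were negative in 17 of 19, 3 (15.8%) at that level, with a median of -0.31, and Cldn5 of the endothelial junctions had -1.0 ± 0.23. Leydig genes were negative in 13 of 20, 3 (15%) at that level, and 1 was positive at it. Their median was -0.25, Hsd3b1 of steroid synthesis having -0.72 ± 0.23. The endothelial and Leydig shares rest on 3 genes each. With the controls exchanged the medians were 0.11 for peritubular and stromal, 0.13 for endothelial and 0.01 for Leydig genes. The medians without the 3 libraries that stood apart were -0.36 for Sertoli, -0.28 for peritubular and stromal, -0.63 for endothelial and -0.20 for Leydig genes. In these lists 5, 2, 4 and 2 genes were then negative at that level, where 551 of all genes were.

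The library 5NC replicate 1 carried high sums in these lists, 2638 CPM for Sertoli genes against 1742 and 1743 CPM in the other 5NC libraries, and 4382 CPM for Leydig genes against 2463 and 3160 CPM. Without it, the Sertoli median was -0.11, with 4 genes negative at an unadjusted p under 0.05. The peritubular and stromal median was then -0.28, with 6 genes negative at that level, so that list changed little. The endothelial median was -0.18 and the Leydig median -0.08. The Leydig median was also -0.10 without 8276OV replicate 1 and -0.09 without 8276KD replicate 2, and -0.40 without 5NC replicate 2. Without 3NC replicate 2, 4 Sertoli genes were negative at that level, and without 8276OV replicate 1, 6 endothelial genes were. Genes of epididymis and fat, tissues that lie against the testis, were negative in 10 of 12 with a median of -0.61, which ranged from -1.39 without 8276OV replicate 2 to -0.33 without 5NC replicate 2, and was -0.41 without the 3 libraries that stood apart. Spink8, an epididymal protease inhibitor, measured 3.68, 16.3 and 12.9 CPM in 5NC and between 0.446 and 2.32 CPM in all other libraries, with a contrast of -4.55 ± 0.92 (adjusted p = 0.182, edgeR). The sum of that list was 178, 352 and 310 CPM in 5NC and between 176 and 221 CPM in the other libraries. Its median was 0.43 with the controls exchanged. The part of tissue beside the testis in the negative values was not tested.

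Germ cell lists lay close to the median of all genes. Meiosis genes were positive in 18 of 25 with a median of 0.17, and elongating spermatid genes negative in 15 of 20 with a median of -0.12. Pachytene spermatocyte and round spermatid genes had medians of 0.05 and -0.07, and undifferentiated and differentiating spermatogonia 0.02 and -0.14, the last being -0.29 without 3NC replicate 3 and -0.24 without 8276OV replicate 2. None of the genes in these 6 lists was called, where 0.0613% of all genes were, and up to 3 per list, both directions counted, reached an unadjusted p under 0.05 with all 12 libraries. Without 5NC replicate 1, 6 elongating spermatid genes were negative at that level, with a median of -0.21, and without 8276OV replicate 1, 6 meiosis genes were positive at it, with a median of 0.29. The meiosis median was 0.09 without 8276OV replicate 3 and 0.07 without 3NC replicate 2, and that of elongating spermatids -0.05 without 5NC replicate 2, -0.07 without 3NC replicate 2 and -0.18 without 3NC replicate 3. The medians without the 3 libraries that stood apart were 0.10 for meiosis and -0.02 for elongating spermatids, with 2 and 0 genes at that level, and 0.05 for round spermatids. Sycp2, of the synaptonemal complex that joins paired chromosomes, had 0.50 ± 0.18, and was highest in 8276OV replicate 3 at 484 CPM and 3NC replicate 2 at 503 CPM, against 320 to 372 CPM elsewhere.

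Cholesterol synthesis was positive in 16 of 22, 6 (27.3%) at an unadjusted p under 0.05, where 8.73% of all genes were. Another 2 (9.09%) were negative at that level, where 6.96% of all genes were. The median was 0.16, and -0.49 with the controls exchanged. Leaving out the 3 libraries that stood apart left 2 positive at that level, with a median of 0.10, and the median was between 0.25 and 0.27 without 8276OV replicate 2, 5NC replicate 3, 8276KD replicate 2 or 3NC replicate 3. Genes of hyaluronan and proteoglycan sugar synthesis were positive in 9 of 13, 7 at an unadjusted p under 0.05, with a median of 0.36, and -0.06 with the controls exchanged. Their count at that level was 2 without 3NC replicate 2, 3 without 8276OV replicate 3 and 4 without 8276KD replicate 1 or 2. It was also 2 without the 3 libraries that stood apart, with a median of 0.11, and without 3NC replicate 2 alone the median was 0.18. Ugdh of this list, which makes the sugar precursor of hyaluronan, lay just outside the threshold at 1.83 ± 0.31 (adjusted p = 0.0540, edgeR), with 10.9, 16.9 and 11.3 CPM in 3NC and between 3.57 and 6.50 CPM elsewhere. Itga5, the integrin subunit that binds fibronectin, was likewise high in 3NC, at 9.11, 7.95 and 8.67 CPM against 1.61 to 4.20 CPM, with 2.25 ± 0.40 (adjusted p = 0.0684, edgeR). Txnip, a sensor of glucose and redox state, had -0.80 ± 0.21 and was lowest in 3NC, at 44.5, 58.7 and 51.4 CPM against 82.9 to 144 CPM. The NRF2 and heat shock lists had medians of 0.08 and 0.07.

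**Figure D5:**
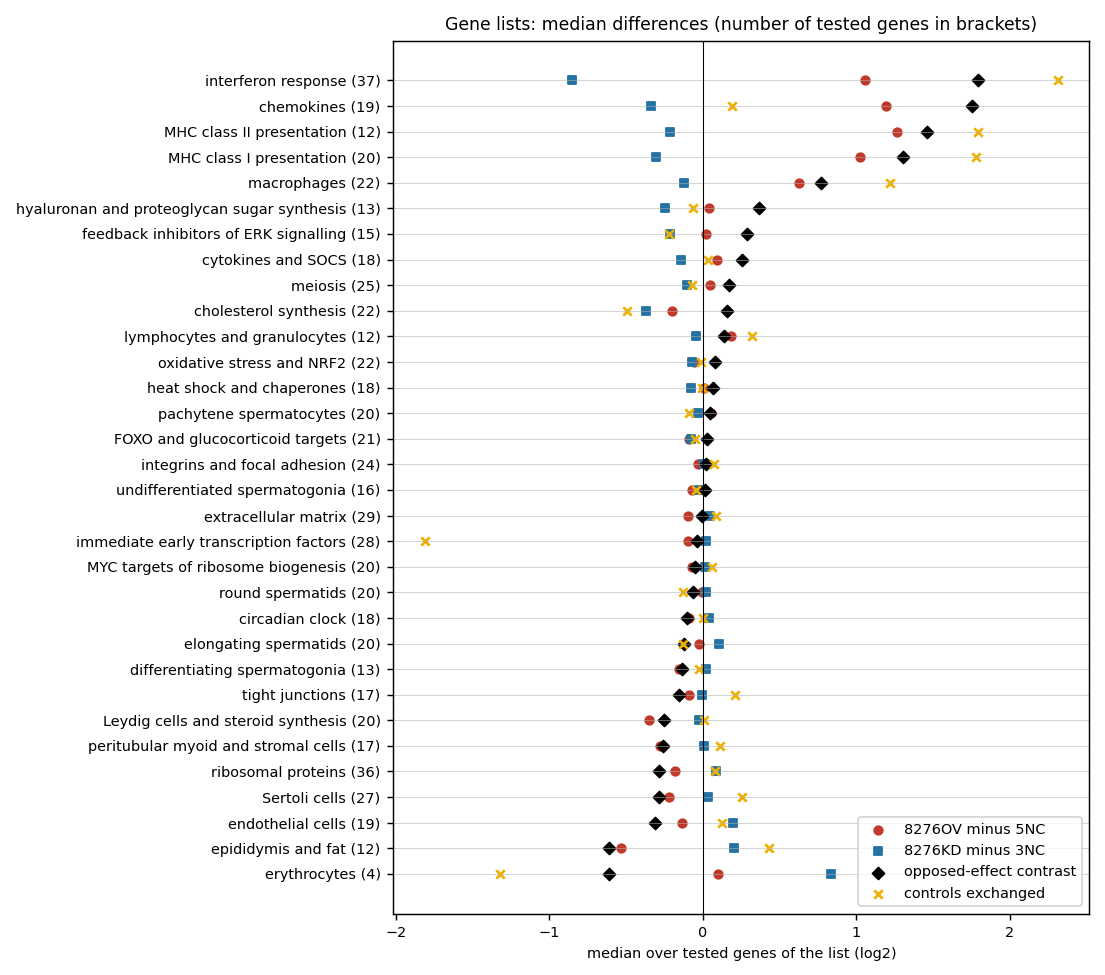
Median log2 difference over the tested genes of each of the 32 lists, with the number of genes in brackets: 8276OV minus 5NC (circles), 8276KD minus 3NC (squares), the contrast itself (diamonds) and the contrast with the controls exchanged (crosses). Interferon and MHC lists are positive both ways, at 1.79 and 2.31 for the interferon response, while early response factors are at -0.04 and -1.81 and ribosomal proteins at -0.28 and 0.08.

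Across genes, the parts of the contrast ran in opposite directions to a limited degree. Over the 16320 genes, the difference of 8276OV from 5NC and that of 8276KD from 3NC, which share no library, had a Spearman rho of -0.37 and a Pearson r of -0.26; genes are not independent replicates, and each part uses the libraries that stood apart. At an unadjusted p under 0.05 in both parts there were 172 genes, of which 149 were opposite, 85 with 8276OV higher and 8276KD lower and 64 the reverse. Another 10 were higher in both and 13 lower in both. Without 3NC replicate 2 alone, rho was -0.14, and 71 of 107 such genes were opposite. Without 8276OV replicate 3 rho was -0.20, and without the 3 libraries together it was -0.09, with 66 of 102 opposite. The number of genes at an unadjusted p under 0.05 in the contrast itself was 1507 without 3NC replicate 2, 1699 without 8276OV replicate 3 and 1111 without the 3 libraries, against 2560 with all.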

How the data were processed

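RNA of 12 testis libraries was measured in 4 groups of 3. The authors deposited estimated counts per gene, of which 88.0% were whole within 0.000001, and a second value per gene that behaves as FPKM: over 5204 genes with more than 500 reads in every library, that value per read times the library total varied by 0.528% (median CV). That the deposited second value is FPKM is thus inferred from the values. Reads were mapped to mm10, per the submitters' processing notes; the sources used here do not give the aligner, the counter, the annotation or the use of strand, so overlapping genes cannot be told apart. The table holds 18 per-sample columns of other samples, which were not used.

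Counts were rounded and fitted in 1 model of the 4 groups with edgeR 4.0.16 in R 4.3.3 (TMM scaling, filterByExpr at a count of 10 and a total of 15, robust quasi-likelihood). Calls are at a Benjamini-Hochberg adjusted p under 0.05 over all 16320 genes tested. The SE is the log2 contrast divided by the square root of F, and edgeR's common biological coefficient of variation came to 0.130. Levels are CPM, plain reads scaled by a library's total. Totals ran from 15448442 to 16355720 reads; intervals and the level of 3 reads cover counting error only. The lowest chi-square per degree of freedom between 2 libraries was 2.93, so none was counted as a repeat of another. The scripts were tested on simulated data.

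Genes were named by rule: called genes with a mean of at least 1 CPM in a group, the 10 of smallest p in a direction with fewer than 5 calls, and up to 3 genes of smallest p in each of 32 lists; some genes the rule selects are not reported here. The rule for promoters, called genes that share a list, selected none. The contrast, lists and rules were chosen with earlier results of these data known. Of the table's identifiers 20564, or 99.3%, matched RefSeq.

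Same-numbered libraries of 8276OV and 5NC deviated together weakly (r = 0.165, 0.149 and 0.109 for numbers 1, 2 and 3). Those of 8276KD and 3NC did not (0.0079, 0.0313 and 0.0558), so a replicate block was read for the first pair. Differently numbered libraries of 8276OV and 3NC reached 0.140 and 0.181, and no label says that a number marks a shared animal. Alternatives were other scalings, filters and tools (DESeq2 1.42.0, limma 3.58.1, limma on log2 FPKM), replicate blocks, leaving out each library, and, chosen after seeing the data, leaving out 3 libraries together and the counts of each list with libraries left out.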

Additional observations from a re-analysis of the deposited data

How the results depend on the processing

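The contrast had 9 positive and 1 negative calls with edgeR. DESeq2's Wald test called 60 and 29, limma with voom and sample weights 40 and 13, and limma on log2(FPKM + 0.1) 5 positive genes. Without a filter, and with a filter at 1 CPM in 3 libraries, 2 negative genes were called. The replicate block for 8276OV and 5NC gave 21 and 3, a replicate block over all 12 libraries gave 11 and 2 and lost Cox7b, and one within each pair gave 48 and 13. Leaving out 1 library gave between 4 and 20 positive and between 0 and 4 negative calls. Leaving out 3 libraries together gave 3 and 1. With the controls exchanged there were 6 and 19 calls, 41 and 40 by DESeq2, between 1 and 34 and between 14 and 23 when 1 library was left out, and 53 and 31 without the 3 libraries; the replicate block there gave 5 and 16.

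Positive calls numbered 20 without 8276OV replicate 2, 18 without 8276OV replicate 3, 5 without 5NC replicate 2, 8276KD replicates 1 or 2 or 3NC replicate 2, and 4 without 5NC replicate 3, 8276KD replicate 3 or 3NC replicate 1. Kcnk3 was not called without 8276KD replicate 2 or 3, with an adjusted p of up to 0.0625 (edgeR). Errfi1 was lost without 5NC replicates 1 or 3, 8276KD replicates 2 or 3, or 3NC replicates 1 or 2, and Lhfpl3 without 5NC replicates 2 or 3, 8276KD replicates 1 or 3, or 3NC replicates 1 or 3. Sema4b kept its call without 8276OV replicates 2 or 3, 5NC replicate 1 or 3NC replicate 3, Trib1 without 8276OV replicates 2 or 3, and Cox7b without 8276OV replicate 2 or 5NC replicate 1. Signs turned in 5 genes that were not called: Cd8a was -0.68 without the 3 libraries, Alas2 0.0055 without 8276OV replicate 2, Junb 0.063 and Egr1 0.115 with voom and sample weights, Egr1 0.174 without 5NC replicate 1, and Btg2 -0.0592 without 8276OV replicate 1, -0.0728 without 8276KD replicate 3 and -0.122 without the 3 libraries. With 1 library left out Alas2 ranged from -0.168 to 0.0055, Btg2 from -0.0728 to 0.428 and Egr1 from -0.296 to 0.174. The number of genes tested differed between these fits, and the cause of each change was not tested. Depth limits the genes with few reads, such as Ccl7, Ccl2, Myc and Lhfpl3.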
